A study of Bos taurus with 27 samples.

Results

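The 10 genes described here took the largest mean share of the RNA-seq counts in the ileum of newborn calves. They are 10 of the 24616 genes in the deposited count table. They were chosen by their mean CPM, the count of a gene scaled to a library of 1000000 counts, over all 27 libraries. From the highest down they are ENSBTAG00000043570, ENSBTAG00000043567, ENSBTAG00000046351, ENSBTAG00000045661, ENSBTAG00000043250, ENSBTAG00000043561, ENSBTAG00000026199, ENSBTAG00000044427, ENSBTAG00000016881 and ENSBTAG00000043560. These are Ensembl cattle identifiers, and the sources used here do not pair them with gene names, so no function, position or sequence is given. The choice used the level over all calves and no feeding comparison, so the levels and their order are a description without a test.

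The 27 libraries came from male Holstein calves randomly assigned to 3 times of colostrum feeding, with 9 calves in each group. Calves were fed immediately after birth (the 0 h group), at 6 h or at 12 h after birth, and the ileum was taken from all of them at 51 h of age. The labels give no other treatment, and every calf received colostrum, so the groups differ in its timing and none went without it. With the age at sampling fixed, a later feeding also left less time between that feeding and sampling. The delay and the time since feeding cannot be told apart. Each library is 1 calf, and the spread within a group is therefore a spread between animals.

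The ileum is the last part of the small intestine, where bile acids and vitamin B12 are absorbed and where lymphoid tissue lies in the gut wall. Colostrum, the first milk, carries maternal antibodies that the intestine of a newborn calf takes up whole for a limited time after birth. The shares of all genes of a library add up to a fixed total, so a larger share of 1 abundant gene leaves less for all others. In a piece of tissue, fewer cells of a type and less RNA per cell cannot be told apart. The ileum label was not checked against marker genes, because no identifier was matched to a name.

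Library totals ran from 972578 to 7125552 counts, and the deepest library was replicate 7 of the 12 h group. They ran from 1152690 to 3234226 at 0 h, from 972578 to 2262714 at 6 h and from 1137558 to 7125552 at 12 h. Depth thus differed between feeding groups too, and is partly tied to feeding time in the comparisons with the 12 h group. The smallest count behind any of the 270 values of the 10 genes was 1716. The Wilson interval at 95% reached at most 0.074 percentage points to either side of a share, and the counting error was at most 2.41% of a value. Intervals cover counting error only, since reads without molecular identifiers are not independent molecules. Counts were not divided by gene length, so a share of counts says how much of a library a gene takes, not how many transcripts it has.

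Together the 10 genes took 34.3% ± 2.23 of the counts of a library (SD, n = 27). In the calves fed at 0 h the summed share was 30.0% at the lowest, 34.5% at the median and 36.6% at the highest. At 6 h it ran from 33.2% through a median of 34.1% to 35.7%. At 12 h it ran from 31.2% through a median of 33.6% to 42.5%. The 3 groups overlapped, with means of 34.1% ± 2.11, 34.2% ± 0.778 and 34.7% ± 3.29 (SD, n = 9 each). Replicate 7 of the 12 h group held 42.5%, and the next calf of that group held 36.3%. That library was also the deepest of the 27, and the part of depth in its share was not tested.

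The first 3 genes carried most of this sum. ENSBTAG00000043570, ENSBTAG00000043567 and ENSBTAG00000046351 together made up 82.8% ± 1.30 of the counts of the 10 genes (SD, n = 27), from 80.02% to 85.4%. Within that block the division changed from calf to calf: ENSBTAG00000043570 alone was 34.2% of the counts of the 10 genes in one calf and 51.6% in another. The SD of the sum of all 10 shares was 2.23 percentage points. The square root of the summed variances of the 10 shares, the value for uncorrelated shares, was 3.23 points. Within the 0 h, 6 h and 12 h groups the SD was 2.11, 0.778 and 3.29 points, against 3.64, 2.37 and 3.65 points. Shares of a fixed total pull against one another by construction, so a smaller SD of the sum is no finding about the genes.

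**Figure D1:**
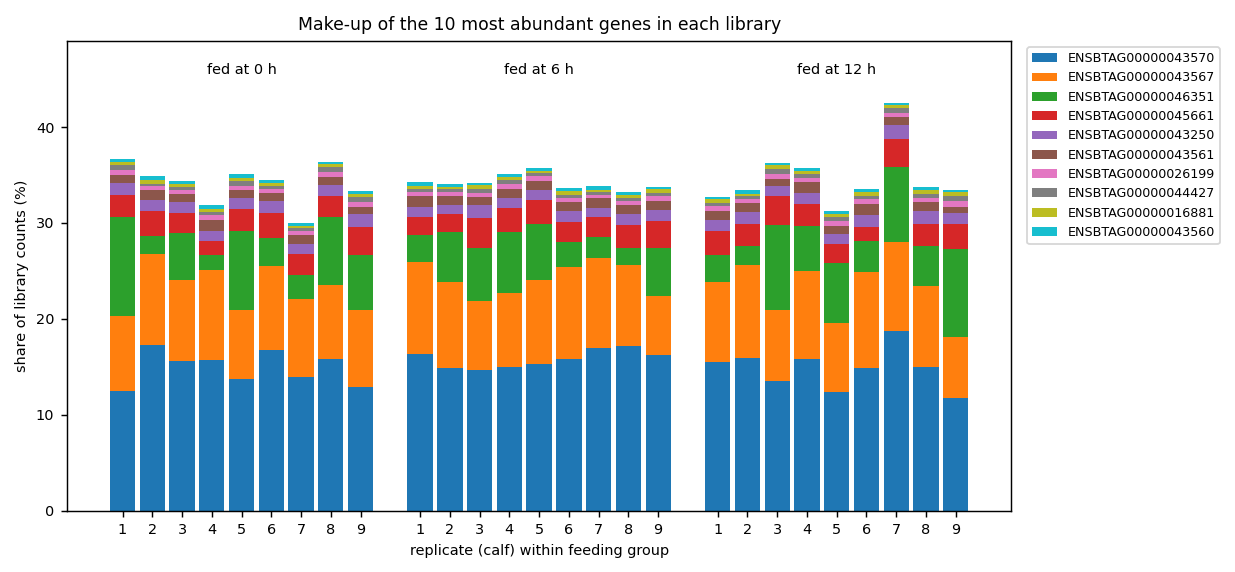
Stacked bars give the share of library counts (%, vertical axis from 0) taken by each of the 10 genes in each calf, with the calves grouped by feeding time along the horizontal axis. The bar of 12 h replicate 7 ends at 42.5% and all others between 30.0% and 36.6%, and the green segment, ENSBTAG00000046351, changes most from calf to calf.

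ENSBTAG00000043570 was the most abundant gene in 27 of 27 libraries, at 15.2% ± 1.64 of the counts (SD, n = 27). In the 0 h group its share had a lowest value of 12.5%, a median of 15.5% and a highest value of 17.3%. In the 6 h group these were 14.7%, 15.9% and 17.2%, and in the 12 h group 11.8%, 15.02% and 18.7%. The groups overlapped, and the 6 h calves lay closest together. The highest value was that of 12 h replicate 7 and the lowest that of 12 h replicate 9.

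ENSBTAG00000043567 came next with 8.39% ± 1.05 of the counts (SD, n = 27). It ran from 7.16% through a median of 8.12% to 9.52% in the 0 h calves. At 6 h it ran from 6.08% through 8.82% to 9.66%, and at 12 h from 6.39% through 8.42% to 10.02%. The groups overlapped over most of their ranges. ENSBTAG00000043570 was above it in 27 of 27 calves, by 1.81-fold in the geometric mean, and the ranges of the pair over all calves did not overlap.

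ENSBTAG00000046351 had the largest spread of the 10 genes. Its mean share was 4.87% ± 2.54 (SD, n = 27), a coefficient of variation of 52.1%, while the other members had coefficients from 10.8% to 25.8%. In the 0 h group it was 1.51% at the lowest, 4.94% at the median and 10.4% at the highest. At 6 h these values were 1.79%, 5.02% and 6.38%, and at 12 h 2.07%, 4.72% and 9.17%. The groups overlapped almost entirely, and low and high calves stood side by side in each of them. At 6 h, 4 calves lay between 1.79% and 2.78% and the other 5 between 5.02% and 6.38%. Both the lowest calf (0 h replicate 4) and the highest (0 h replicate 1) had been fed at 0 h, with a 6.85-fold range between them. Its counting error was at most 0.748% of a value, far below this spread. The gene stood below ENSBTAG00000043567 in 23 of 27 calves and above ENSBTAG00000045661 in 24 of 27, so neither neighbour in the order was separated from it in every calf.

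ENSBTAG00000045661 took 2.35% ± 0.417 of the counts (SD, n = 27). Its lowest, median and highest shares were 1.49%, 2.29% and 2.89% at 0 h, 1.82%, 2.44% and 3.11% at 6 h, and 1.504%, 2.31% and 3.02% at 12 h. It was above ENSBTAG00000043250 in 27 of 27 calves, with ranges that did not overlap. The 3 feeding groups overlapped for both genes. ENSBTAG00000043250 took 1.15% ± 0.130, with lowest, median and highest shares of 1.04%, 1.14% and 1.405% at 0 h, 0.929%, 1.13% and 1.38% at 6 h, and 1.011%, 1.21% and 1.46% at 12 h. ENSBTAG00000043561 took 0.932% ± 0.120, from 0.711% through 0.885% to 1.18% at 0 h, from 0.820% through 0.979% to 1.06% at 6 h and from 0.694% through 0.937% to 1.199% at 12 h. It lay below ENSBTAG00000043250 in 24 of 27 calves and above ENSBTAG00000026199 in 27 of 27, the latter with ranges that did not overlap.

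The last 4 genes lay below ENSBTAG00000043561 in every library. ENSBTAG00000026199 had a share of 0.452% ± 0.0494 (SD, n = 27), with lowest, median and highest values of 0.374%, 0.437% and 0.546% at 0 h, 0.389%, 0.431% and 0.494% at 6 h, and 0.398%, 0.471% and 0.559% at 12 h. ENSBTAG00000044427 had 0.389% ± 0.1003, from 0.233% through 0.382% to 0.594% at 0 h, from 0.216% through 0.352% to 0.480% at 6 h and from 0.305% through 0.394% to 0.554% at 12 h. The feeding groups overlapped for both, and ENSBTAG00000044427 was the wider of the pair. ENSBTAG00000026199 was the higher in 21 of 27 calves, and ENSBTAG00000044427 was above ENSBTAG00000016881 in 19. ENSBTAG00000016881 had 0.316% ± 0.0700, with values of 0.279%, 0.288% and 0.430% at 0 h, 0.161%, 0.317% and 0.376% at 6 h, and 0.224%, 0.335% and 0.432% at 12 h. ENSBTAG00000043560 had 0.315% ± 0.0397, with values of 0.277%, 0.316% and 0.387% at 0 h, 0.276%, 0.327% and 0.361% at 6 h, and 0.221%, 0.300% and 0.379% at 12 h. The groups overlapped for this pair too. Neither gene was steadily the higher, as ENSBTAG00000016881 was above ENSBTAG00000043560 in 13 of 27 calves.

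**Figure D2:**
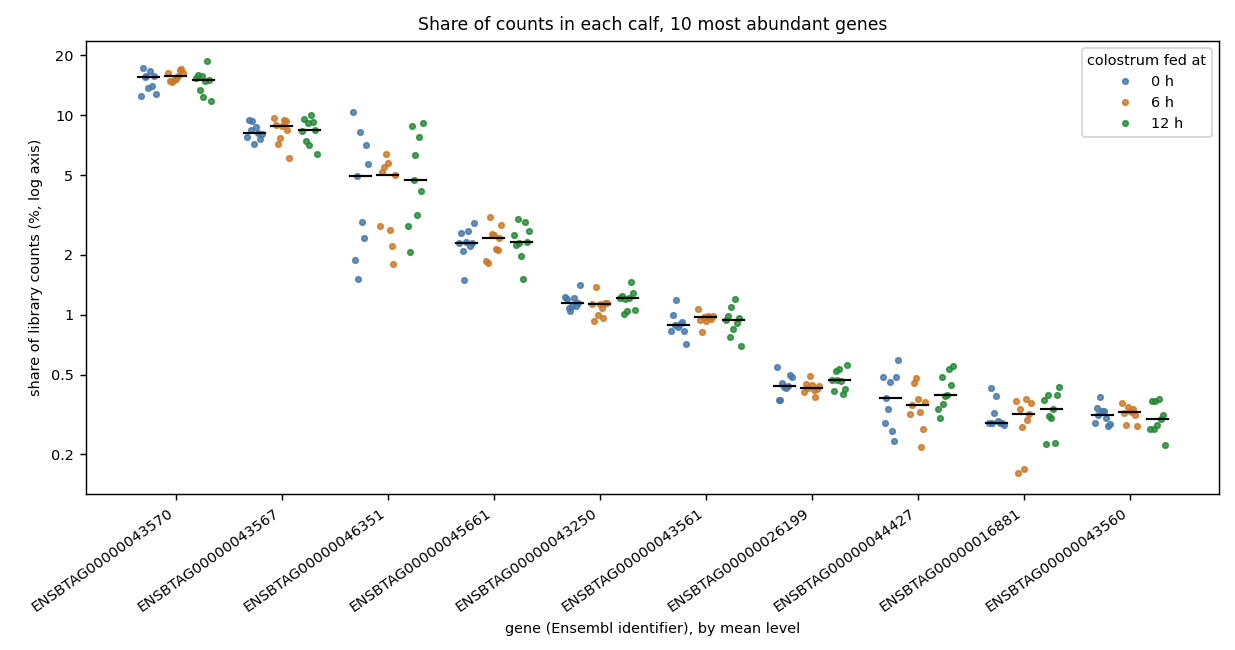
Each point is the share of library counts (%, log axis) of 1 gene in 1 calf, coloured by feeding time, with a black line at the median of the 9 calves. ENSBTAG00000043570 lies at the top with 11.8% to 18.7%, and ENSBTAG00000046351 has the tallest columns, from 1.51% to 10.4%.

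The threshold of the list fell between genes of nearly equal level. ENSBTAG00000016881 and ENSBTAG00000043560, the last inside it, had mean CPM of 3156 and 3152. ENSBTAG00000043560 was above the first gene outside, ENSBTAG00000043550, in 21 of 27 calves. The genes outside were ENSBTAG00000043550 at 3040, ENSBTAG00000042458 at 2974 and ENSBTAG00000047154 at 2831. The last of these reached its mean through few calves, with a median share of 0.00529% and a highest share of 1.27%. The first 7 genes of the list ranked among the top 10 in each of the 27 libraries. ENSBTAG00000044427 did so in 17, ENSBTAG00000016881 in 13 and ENSBTAG00000043560 in 11. A single library held 7 to 9 of the 10 genes among its own top 10, and 0 of 27 held all of them. Ranking by median CPM or by summed counts gave the same 10 genes, as did leaving out any 1 of the 27 libraries. Ranked on the 0 h calves alone, ENSBTAG00000047042 replaced ENSBTAG00000043560, and on the 6 h calves alone ENSBTAG00000047154 replaced ENSBTAG00000016881.

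The spread between calves was compared with that of the other genes through the biological coefficient of variation, edgeR's estimate of the variation left after counting error. For each gene edgeR draws this estimate toward that of genes of similar level. For ENSBTAG00000046351 it was 55.7%, higher than in 98.9% of the 11429 genes that passed the filter on low counts, against a median of 14.9% over those genes. ENSBTAG00000044427 had 28.1% and ENSBTAG00000016881 24.0%, above 92.7% and 87.6% of the genes. ENSBTAG00000026199 was the lowest of the 10 at 16.7%. By this estimate all 10 lay above the median gene, and all 10 passed the filter. For each of the 10 the estimate was above the coefficient of variation of its shares over the 27 calves. It was 19.9% against 10.8% for ENSBTAG00000043570 and 16.7% against 10.9% for ENSBTAG00000026199. These measures also differ in scaling and grouping. The estimate uses counts scaled by a per-library factor (TMM) within feeding groups, and the coefficient uses unscaled shares over all calves. What each difference adds to the gap was not tested. Because the estimate is drawn toward other genes, the place of a gene against the median does not rest on its own spread alone.

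The study asked whether the time of the first colostrum changes the transcripts of the ileum. None of the 10 genes passed the test of any feeding comparison. The pairwise comparisons were those of the 6 h group with 0 h, of the 12 h group with 0 h and of the 12 h group with 6 h, and the fourth test was that of any difference among the 3 times. With edgeR's quasi-likelihood test and Benjamini-Hochberg adjustment over 11429 genes, 0 of 10 were called in each. The share of all genes called in these tests was 0% each. At an unadjusted p under 0.05, 0 of the 10 genes passed in any of the 4 tests, against 3.33%, 3.5%, 5.12% and 3.81% of all genes in the same order. DESeq2 and limma voom also called 0 of 10 in each, and 0 of 10 at an unadjusted p under 0.05. The smallest p of the 10 genes was that of ENSBTAG00000026199 in 12 h against 6 h, 0.102 unadjusted and 0.936 adjusted. For each of the 10 genes, the groups overlapped in each of the 3 comparisons.

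The intervals give the size of change that the data leave room for. The log2 fold changes of the 10 genes ran from -0.28 to 0.08 in 6 h against 0 h. They ran from -0.03 to 0.15 in 12 h against 0 h, and from -0.07 to 0.43 in the remaining comparison. The 95% interval stayed within a 1.5-fold change in either direction for 9, 9 and 8 of the 10 genes, against 79.3%, 84.5% and 80.1% of all genes. It stayed within a 2-fold change for 9, 10 and 9, against 97.4%, 98.3% and 97.3% of all genes. The median standard error of the 10 genes was 0.0933 in each comparison, and that of all genes 0.145, 0.137 and 0.141. Only ENSBTAG00000046351, ENSBTAG00000044427 and ENSBTAG00000016881 had standard errors above those medians of all genes.

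ENSBTAG00000046351 had the widest intervals. Its log2 fold change was -0.28 (SE 0.390, 95% interval -1.09 to 0.52) in 6 h against 0 h. It was 0.15 (interval -0.66 to 0.95) between the 12 h and 0 h groups and 0.43 (interval -0.38 to 1.24) between the 12 h and 6 h groups. For this gene the interval reached past a 2-fold change in 2 of the 3 comparisons. The change with the next widest interval was that of ENSBTAG00000044427, at -0.17, 0.12 and 0.29 (SE 0.188 each), the last with an interval from -0.09 to 0.68. ENSBTAG00000016881 stood at -0.11, 0.07 and 0.18 (SE 0.153 each).

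The most abundant gene was among the most narrowly bounded. ENSBTAG00000043570 had values of 0.08 (SE 0.0888, interval -0.10 to 0.26), 0.01 (interval -0.17 to 0.19) and -0.07 (interval -0.25 to 0.11) on the log2 scale in the 3 comparisons. ENSBTAG00000026199 had the smallest standard error, 0.0840, with values of -0.06, 0.09 and 0.14. Of the 10 genes, 5 had values above 0 and 5 below in the first comparison, 9 and 1 in the second, and 7 and 3 in the third. Over all genes 49.8%, 50.3% and 50.1% were above 0. The median log2 fold changes of the 10 genes were -0.03, 0.06 and 0.08, and those of all genes -0.00050, 0.00089 and 0.00042. Without 12 h replicate 7 the splits of both comparisons with the 12 h group became 5 and 5.

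**Figure D3:**
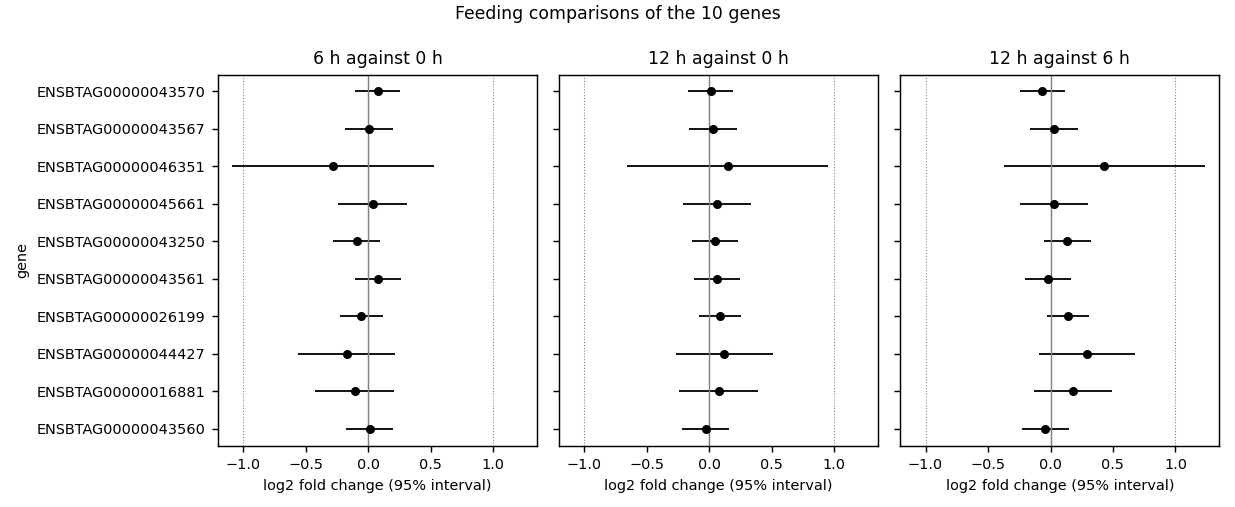
Points are log2 fold changes from edgeR with 95% intervals for each of the 10 genes (vertical axis) in the 3 feeding comparisons (panels), with dotted lines at a 2-fold change. Each of the 30 intervals includes 0, and those of ENSBTAG00000046351 are the widest, from -1.09 to 0.52 in the first panel.

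How the 10 genes varied against one another was no part of their choice. Across the 27 calves, 8 of the 45 pairs among them were correlated in the same direction and 0 in opposite directions. This counts pairs with an adjusted p under 0.05 for Spearman's rho of log2 CPM after TMM scaling, a per-library factor set on the bulk of the genes. The test used 100000 permutations of the calves, was two-sided, and was adjusted over all 114235 pairs of 1 of the 10 genes with any gene kept. Of those pairs 2.08% were called higher together and 1.28% opposite, that is 2380 and 1464. These counts were 1534 and 873 without 12 h replicate 3, 1671 and 960 without 6 h replicate 7, and 1280 and 731 without the 2 calves farthest from the median. Those 2 calves were chosen anew for each of the 10 genes, by the level of that gene alone. In a pair of the 10 genes, the gene with the higher mean CPM set which 2 calves were left out. Pearson's r called the same 8 pairs. In each of the 8 pairs, rho was positive within each of the 3 feeding groups.

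The 8 pairs fell into a set of 4 genes and a set of 3. The first set was ENSBTAG00000043570, ENSBTAG00000043567, ENSBTAG00000043561 and ENSBTAG00000043560. ENSBTAG00000043561 and ENSBTAG00000043560 had rho = 0.84 and r = 0.84 (adjusted permutation p = 0.0045 and 0.0041). Within the 0 h, 6 h and 12 h calves their rho was 0.92, 0.63 and 0.92. Their ratio was also the steadiest of all 45: ENSBTAG00000043561 stood 2.96-fold above ENSBTAG00000043560 in the geometric mean and between 2.51-fold and 3.56-fold in every calf. ENSBTAG00000043567 went with ENSBTAG00000043560 at rho = 0.79 and r = 0.79, and with ENSBTAG00000043561 at rho = 0.75 and r = 0.66. The latter pair lost its call when the replicate number was taken as a block. ENSBTAG00000043570 joined the set more loosely. It had rho = 0.65 with ENSBTAG00000043561 and 0.605 with ENSBTAG00000043567 (adjusted permutation p = 0.0192 and 0.0417). Pearson's r was 0.63 for both (adjusted permutation p = 0.0253 and 0.0241). Without the 2 calves farthest from the median, rho with ENSBTAG00000043561 was 0.59 and r 0.64 (adjusted permutation p = 0.0755 and 0.0441). With ENSBTAG00000043567, rho was then 0.52 and r 0.50 (adjusted permutation p = 0.148 and 0.171). Both correlations kept their sign, and that with ENSBTAG00000043567 lay close to the threshold in all 27 calves. Its rho with ENSBTAG00000043567 within the 6 h calves was 0.27. Over the 35 settings tried, the pair with ENSBTAG00000043567 was called in 20 and that with ENSBTAG00000043561 in 31. The remaining pair of the set, ENSBTAG00000043570 with ENSBTAG00000043560, was not called, at rho = 0.55 and r = 0.58 (adjusted permutation p = 0.0758 and 0.0544). Within the 0 h, 6 h and 12 h calves its rho was 0.73, 0.07 and 0.60. It was called in 2 of the 35 settings.

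The second set was ENSBTAG00000046351, ENSBTAG00000044427 and ENSBTAG00000026199. ENSBTAG00000046351, the gene with the widest spread, had the highest rho of the 45 pairs, 0.87, with ENSBTAG00000044427 (r = 0.83, adjusted permutation p = 0.0045). It was 0.73, 0.93 and 0.80 within the 0 h, 6 h and 12 h calves and 0.88 without the 2 farthest calves. ENSBTAG00000046351 and ENSBTAG00000026199 had rho = 0.71 and r = 0.68 (adjusted permutation p = 0.0089 and 0.0098). ENSBTAG00000026199 and ENSBTAG00000044427 had rho = 0.73 and r = 0.69 (adjusted permutation p = 0.0072 and 0.0116). With column totals in place of TMM this last pair was no longer called, at rho = 0.56 (adjusted permutation p = 0.0604). These genes moved together over very different distances: ENSBTAG00000046351 spanned 6.85-fold between calves, ENSBTAG00000044427 2.75-fold and ENSBTAG00000026199 1.49-fold. Accordingly the ratio of the first to the second was not constant, and ran from 4.49 to 21.1.

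**Figure D4:**
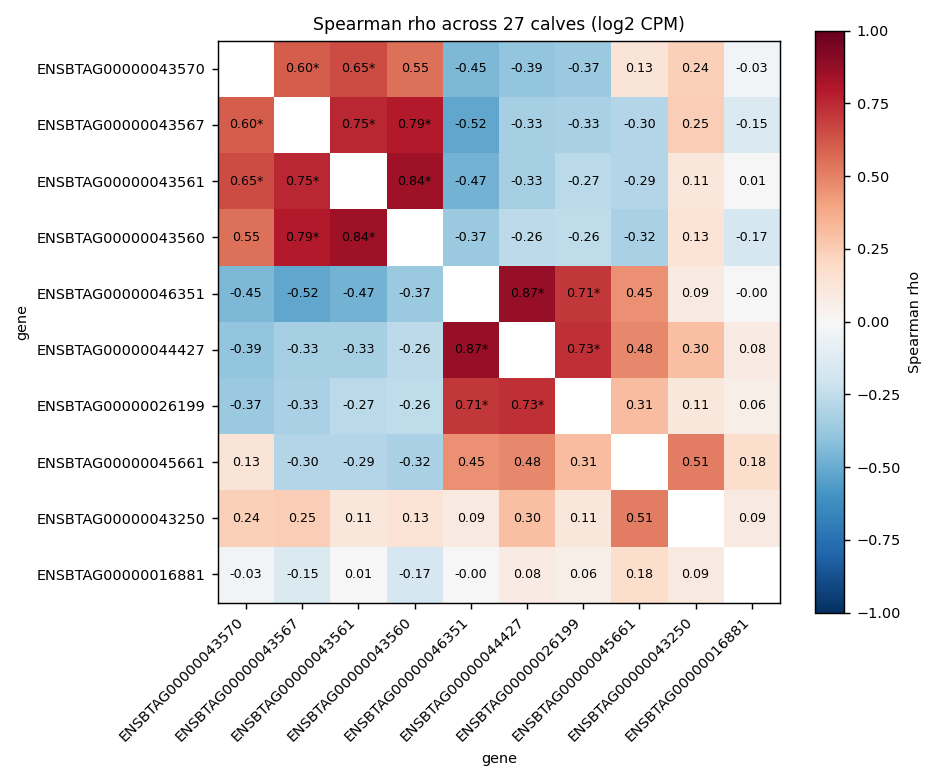
The grid gives Spearman's rho of log2 CPM across the 27 calves for each pair of the 10 genes, from -1 (blue) to 1 (red), with an asterisk where the adjusted permutation p was under 0.05. A block of 4 genes at the upper left and a block of 3 in the middle hold all 8 asterisks, and the lowest rho is -0.52.

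Between the 2 sets rho was negative in each pair, and none of these passed the test. The lowest value was rho = -0.52 between ENSBTAG00000043567 and ENSBTAG00000046351 (r = -0.42, unadjusted permutation p = 0.00613 for rho, adjusted p = 0.09996). It was -0.68, -0.40 and -0.43 within the 0 h, 6 h and 12 h calves. Without the 2 farthest calves rho was -0.68 and passed, with an adjusted permutation p of 0.0291, while r was -0.62 with an adjusted p of 0.0538. The number of opposite pairs depended on the scaling. With column totals alone, 5 pairs were called together and 6 opposite, each of the 6 joining a gene of one set to a gene of the other. Over all 114235 pairs the same change moved the calls from 2380 together and 1464 opposite to 1753 and 2776. ENSBTAG00000046351 exceeded ENSBTAG00000043567 outright in 4 calves.

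**Figure D5:**
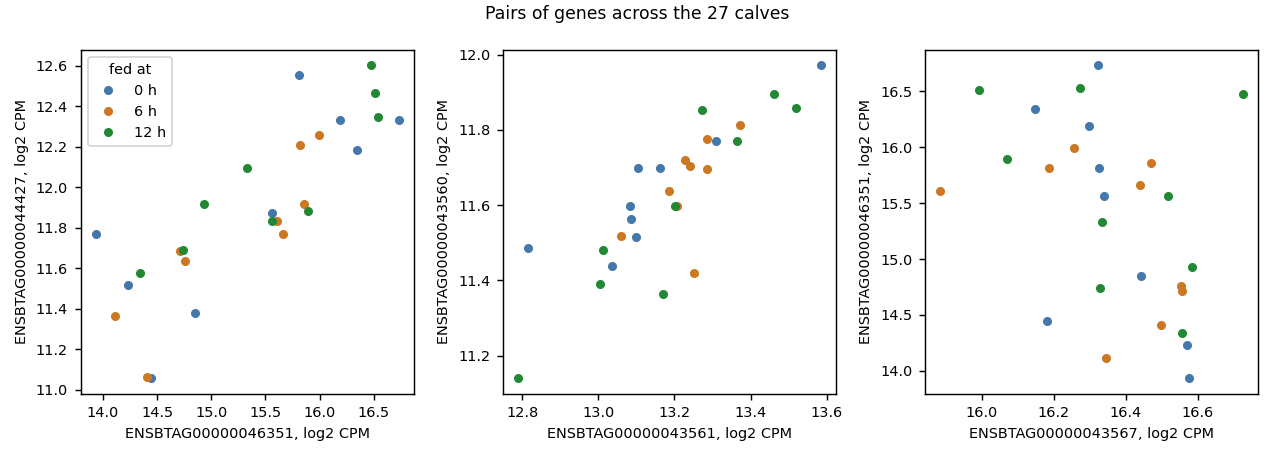
Each point is 1 calf, coloured by feeding time, and the axes give log2 CPM of 2 genes. The left and middle panels show pairs that rose together (rho 0.87 and 0.84), the right panel shows ENSBTAG00000043567 against ENSBTAG00000046351 (rho -0.52, not called), and the 3 feeding times are mixed in each panel.

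ENSBTAG00000045661, ENSBTAG00000043250 and ENSBTAG00000016881 were in none of the pairs called above. Among the pairs of these genes, ENSBTAG00000045661 and ENSBTAG00000043250 came nearest to a call, at rho = 0.51 and r = 0.56 (adjusted permutation p = 0.11 and 0.0614). Their rho was 0.90, 0.73 and 0.22 within the 0 h, 6 h and 12 h calves. Without the 2 farthest calves rho was 0.57 and r 0.68 (adjusted permutation p = 0.0932 and 0.023). By rho the pair was called in 2 of 35 settings, with feeding group means or a line on library total removed. ENSBTAG00000016881 had rho between -0.17 and 0.18 with each of the other 9. These values joined feeding groups that differed in sign, except with ENSBTAG00000045661. Within the 0 h, 6 h and 12 h calves its rho with ENSBTAG00000043561 was 0.78, 0.45 and -0.50, and with ENSBTAG00000043560 0.68, -0.13 and -0.55. The differences between groups were not tested. Ratios between the 10 genes were also compared between feeding groups. The SD of a log2 ratio over all calves ran from 0.105 to 0.944 over the 45 pairs. The difference in mean log2 ratio exceeded the larger group SD in 0 of 45 pairs in each comparison with the 0 h group, and in 1 pair between the 12 h and 6 h groups. That 1 pair, singled out after its values were seen, was ENSBTAG00000043570 over ENSBTAG00000043250, at 14.4-fold in the 6 h calves and 12.4-fold in the 12 h calves.

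Each of the 10 genes was also set against all other genes kept. ENSBTAG00000044427 was called together with 6.3% of them and opposite to 3.21%, and ENSBTAG00000046351 with 5.16% and 2.63%. ENSBTAG00000026199 followed with 4.1% and 2.48%. The second set was thus tied to many more genes than ENSBTAG00000043250, with 0.201% and 0.114%, or ENSBTAG00000043560, with 0.306% and 0.14%. ENSBTAG00000043570 was the exception in direction, with 0.928% together and 2.33% opposite. These percentages hold for TMM scaling. With column totals, 1753 pairs were called together and 2776 opposite over the 10 genes, and the direction for each gene is not given.

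The gene most like each of the 10, by the highest rho over 27 calves, was another of the 10 only for ENSBTAG00000046351, whose nearest gene was ENSBTAG00000044427. ENSBTAG00000043560 was nearest to ENSBTAG00000043550 (rho = 0.93, r = 0.93), the first gene outside the list. ENSBTAG00000043567 and ENSBTAG00000043561 shared their nearest gene, ENSBTAG00000043558, at rho = 0.92 and 0.86 (r = 0.91 and 0.83). ENSBTAG00000043570 was nearest to ENSBTAG00000000678 (rho = 0.77, r = 0.60), the lowest rho apart from that of ENSBTAG00000043250, whose nearest gene was ENSBTAG00000006441 (rho = 0.72, r = 0.66). ENSBTAG00000044427 was nearest to ENSBTAG00000019851 and ENSBTAG00000026199 to ENSBTAG00000020645, both at rho = 0.89 (r = 0.90 and 0.87). ENSBTAG00000045661 was nearest to ENSBTAG00000043162 (rho = 0.87, r = 0.88) and ENSBTAG00000016881 to ENSBTAG00000038381 (rho = 0.86, r = 0.83). For these 10 nearest genes the adjusted permutation p of rho was between 0.0045 and 0.006, and rho stayed between 0.68 and 0.91 without the 2 farthest calves. Each raw p was 1e-05, the smallest that 100000 permutations can give, except 2e-05 for ENSBTAG00000043570.

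The level of the 10 genes was compared with the library total, since depth differed between calves and between feeding groups. After adjustment over all genes 0 of 10 were correlated with it, by Spearman's rho and by Pearson's r with permutation tests. By Spearman's rho 0.0% of the 11429 genes were called, and the share over all genes is not given for Pearson's r. ENSBTAG00000043250 had r = 0.46 (unadjusted permutation p = 0.0155, adjusted p = 0.9999), and r was 0.18 without the 2 deepest libraries, so this value rested on them.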

How the data were processed

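Total RNA from frozen ileum was sequenced with an unstranded library kit, per the labels' protocols. The authors deposited raw counts per gene. HTSeq, SAMtools 1.4, TopHat and TopHat2 2.1.1 are named in the submitters' processing notes, with the build UMD3.1 and no role or order. The treatment of reads with several matches is not given in the sources used here, so genes with near-identical copies are uncertain, and a gene and an antisense partner cannot be told apart. Sample descriptions in the labels gave the calf of each of the 27 columns. Of the identifiers, 0 were matched to a symbol, so the gene lists and cell type markers planned were not tested. No batch is given in the labels.

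The 10 genes and the lists were chosen with earlier results of these data known. The genes named are the 10, the 3 just below them and the gene most like each. Counts were fitted in R 4.3.3 with edgeR 4.0.16: filterByExpr with a minimum count of 10 and a minimum total of 15 kept 11429 genes, libraries were scaled by TMM, and a robust quasi-likelihood model of feeding group was fitted to all 27 libraries, at an adjusted p of 0.05. A prior count of 2 was added for log2 CPM. Correlations were computed in Python 3.11.15. Both tests were tested on simulated data. The alternatives were other scalings, filters, tools (DESeq2 1.42.0, limma 3.58.1 voom), covariates, the replicate number as a block and leaving out each library. Of 351 pairs of libraries, none was a duplicate.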

Additional observations from a re-analysis of the deposited data

Results flagged for a closer look

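In 2 of 33 sets of 9 calves, made up of the 10 genes and their sum in each feeding group, 1 calf lay far from the rest by Dixon's gap test. Chance alone gives about 1 in 20. ENSBTAG00000043250 was at 1.38% of counts in 6 h replicate 3, and the next calf of that group was at 1.15%. The 10 genes together held 42.5% of counts in 12 h replicate 7, and the next calf held 36.3%.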

How the results depend on the processing

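Over 39 settings, 27 of them leaving out 1 library, 0 of the 10 genes were called in any feeding comparison, and the smallest adjusted p was 0.767. Over the whole table edgeR called 1 gene without a filter and 1 without 0 h replicate 9, 6 h replicate 5 or 6 h replicate 8, and DESeq2 called 3, all in 12 h against 0 h, and 2 in the test of any difference. The cause was not tested. Of the 30 log2 fold changes 18 kept their sign throughout, and the 12 that did not were 0.0642 or smaller in size. Of these, ENSBTAG00000043567 in 6 h against 0 h became -0.0033 without a filter and -0.0025 with the replicate block. In 12 h against 0 h, ENSBTAG00000043570 became -0.0091 with column totals, -0.022 with voom, -0.00069 with the replicate block and -0.030 with the library total as covariate. With that covariate ENSBTAG00000043567 became -0.0011 and ENSBTAG00000043250 -0.024. In 12 h against 6 h, ENSBTAG00000043567 became -0.0068 with voom and -0.027 with the covariate.

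Leaving out 1 library put the log2 fold change in 6 h against 0 h of ENSBTAG00000043567 from -0.021 to 0.055, ENSBTAG00000045661 from -0.032 to 0.081 and ENSBTAG00000043560 from -0.0099 to 0.060. Leaving out 1 library put the log2 fold change in 12 h against 0 h of ENSBTAG00000043570 from -0.071 to 0.049, ENSBTAG00000043567 from -0.017 to 0.076, ENSBTAG00000045661 from -0.0096 to 0.13, ENSBTAG00000043250 from -0.030 to 0.080 and ENSBTAG00000043560 from -0.072 to 0.021. Leaving out 1 library put the log2 fold change in 12 h against 6 h of ENSBTAG00000043567 from -0.025 to 0.067, ENSBTAG00000045661 from -0.043 to 0.099, ENSBTAG00000043561 from -0.064 to 0.023 and ENSBTAG00000043560 from -0.084 to 0.0063.
Without 12 h replicate 7, ENSBTAG00000043570, ENSBTAG00000043567, ENSBTAG00000045661 and ENSBTAG00000043250 changed sign in 12 h against 0 h, to -0.071, -0.017, -0.0096 and -0.030. In 12 h against 6 h, ENSBTAG00000043567 and ENSBTAG00000045661 changed to -0.022 and -0.043.

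Pairs of the 10 genes called together numbered 5 with column totals, against 8, and between 6 and 9 when 1 library was left out. Pairs called opposite numbered 6 with column totals, 1 without the 2 farthest calves, and 0 to 1 when 1 library was left out, with 1 without 0 h replicate 7 or 12 h replicate 7. Of the 8 pairs, 4 were called in all 35 settings. ENSBTAG00000043570 with ENSBTAG00000043567 was called in 20, and lost its call without any 1 of 0 h replicates 1, 2, 5, 6, 7 and 9, 6 h replicate 7 and 12 h replicates 3, 5, 7 and 9. ENSBTAG00000043570 with ENSBTAG00000043561 was called in 31, and lost its call without 12 h replicate 3 or 9. Replicate numbers are shared between groups, but same-numbered calves did not deviate together: the median correlation was -0.044 over 27 pairs, against -0.013 over 216 others, and 2 of 27 libraries went best with their own number. With the replicate block 6 pairs were called together, without ENSBTAG00000043567 with ENSBTAG00000043561 or with ENSBTAG00000043570, and no feeding call changed.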
